A study of Mus musculus with 10 samples.

Results

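The genes described here are 10 imprinted mouse genes, chosen by name with earlier results of these data known. The wider gene lists were chosen in the same way, so counts of calls set beside array shares are a description. Every probe set that the platform annotation assigns to a member and to no other gene was used. By that rule 16 of the 45101 probe sets on the array belonged to them, and these covered 9 of the 10 genes. The probe sets of Igf2 (2), Peg10 (1), Sgce (2), Plagl1 (3) and Mest (1) report paternally expressed genes, and those of Igf2r (2), Phlda2 (1), Grb10 (3) and Zim1 (1) report maternally expressed genes. H19 had 1 probe set, which is also annotated to Mir675, and is not analysed here, and a probe set that Igf2r shares with Airn was left out too.

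RNA came from the mouse ES cell line CGR8 (strain SV129), an established line, so all 4 groups share 1 genetic background. The groups were ES cells kept for 3 days in 1 mM EBIO (n = 3), ES cells without it (n = 3), cells differentiated for 5 days as embryoid bodies and then cultured for 10 days with EBIO (n = 2), and cells differentiated in the same way and cultured for 10 days without EBIO (n = 2). EBIO is an opener of potassium channels that respond to calcium, and the labels give no dose for the differentiated cultures. Passages 25, 26 and 27 each gave 1 array to either ES group. The design text describes the replicates as independent experiments, and it is the spread between those that the p-values measure.

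An imprinted gene is read mainly from the copy inherited from the mother or mainly from the copy inherited from the father, under control of DNA methylation laid down in the germ line. Many imprinted genes act on growth. Paternally expressed Igf2 encodes a fetal growth factor that signals through Igf1r, and maternally expressed Igf2r encodes a receptor that carries the same factor to the lysosome for breakdown. The arrays measured RNA of both parental copies together, so they show how much transcript a gene made and not which copy made it.

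All values are the authors' log2 RMA values, a scale on which 1 unit is a doubling and on which differences between dim probe sets are understated. Array medians lay between 4.52 and 4.62 on the 6 ES arrays and between 5.59 and 5.68 on the 4 differentiated arrays. The distributions of an ES and a differentiated array differed by at least 0.913 on average over their quantiles, against at most 0.0935 within a stage, so the 2 stages do not share a scale and levels are compared between stages only by rank within an array. Replicate arrays correlated at 0.982 to 0.997 across probe sets, and the untreated ES array of passage 27 took part in the lowest of these. A probe set was tested where it exceeded the array median on a number of arrays not below the size of the smallest group. Calls are adjusted p under 0.05 in limma, with Benjamini-Hochberg adjustment over all probe sets tested.

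The promoters of 3 genes are shown because their genes moved in clearly different ways: Igf2r was higher with EBIO at both stages, Phlda2 was lower at both, and Igf2 was higher in ES cells and lower in differentiated cells. Each run is 300 bases from the RefSeq table of build GRCm38.p6, from 250 bases before to 50 bases after an annotated start, read 5′ to 3′ on the minus strand. Capitals mark the GC box letters GGGCGG on either strand and the letters TATAAA. The Igf2r window is chr17:12769657-12769956, that of Phlda2 is chr7:143502475-143502774, and the Igf2 window chr7:142657447-142657746 lies at the most downstream of 4 annotated starts.
Igf2r: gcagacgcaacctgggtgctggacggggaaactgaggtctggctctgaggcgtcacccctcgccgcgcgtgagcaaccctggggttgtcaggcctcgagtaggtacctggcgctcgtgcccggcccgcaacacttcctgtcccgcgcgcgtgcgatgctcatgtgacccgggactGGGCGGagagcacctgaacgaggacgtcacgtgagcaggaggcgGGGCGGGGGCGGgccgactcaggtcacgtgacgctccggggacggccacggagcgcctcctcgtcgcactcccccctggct
Phlda2: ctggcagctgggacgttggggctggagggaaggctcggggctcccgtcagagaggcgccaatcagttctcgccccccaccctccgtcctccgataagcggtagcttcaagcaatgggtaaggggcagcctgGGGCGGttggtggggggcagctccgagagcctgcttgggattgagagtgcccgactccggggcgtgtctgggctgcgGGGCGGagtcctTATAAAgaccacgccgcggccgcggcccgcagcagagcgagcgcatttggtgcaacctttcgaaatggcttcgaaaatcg
Igf2: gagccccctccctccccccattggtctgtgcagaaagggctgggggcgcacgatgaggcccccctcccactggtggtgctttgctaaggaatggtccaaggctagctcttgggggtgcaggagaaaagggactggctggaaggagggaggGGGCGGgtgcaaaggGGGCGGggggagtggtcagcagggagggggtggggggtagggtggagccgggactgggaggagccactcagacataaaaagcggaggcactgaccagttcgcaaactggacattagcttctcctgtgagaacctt

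The windows of Igf2r and Phlda2 held 34 and 26 CpG dinucleotides and the Igf2 window shown held 7, which is also the median over the 32851 promoters in the table. Windows at the other Igf2 starts held 24, 14 and 2, so 7 does not describe the gene. GC boxes were present in 10 of the 13 windows of 7 members in the table, against 35.7% of all windows. Among the 13 are Mest windows that overlap almost fully. TATAAA was present in 1 of the 13, that of Phlda2, where it begins at position -30 from the start, against 13.6% of all windows. The letters GGGGCCCC, which the Plagl1 protein is known to bind, were in 0 of the 13 member windows and in 1.08% of all windows. These counts describe letters in 300 bases and say nothing of binding.

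In undifferentiated ES cells the question was how imprinted gene RNA responds to EBIO over 3 days. Igf2, Peg10, Sgce and Igf2r rose, Phlda2 and Mest fell, and Grb10 was not called. Plagl1 and Zim1 stayed under the array median on every ES array and were not tested. Of the 16 probe sets 10 could be tested, and of these 5 were called higher and 2 lower, where 39.5% of the 23180 probe sets tested on the array were called, 21.8% higher and 17.6% lower. At 7 of the 10 the EBIO and control arrays did not overlap, as at 50.5% of all probe sets tested.

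**Figure D1:**
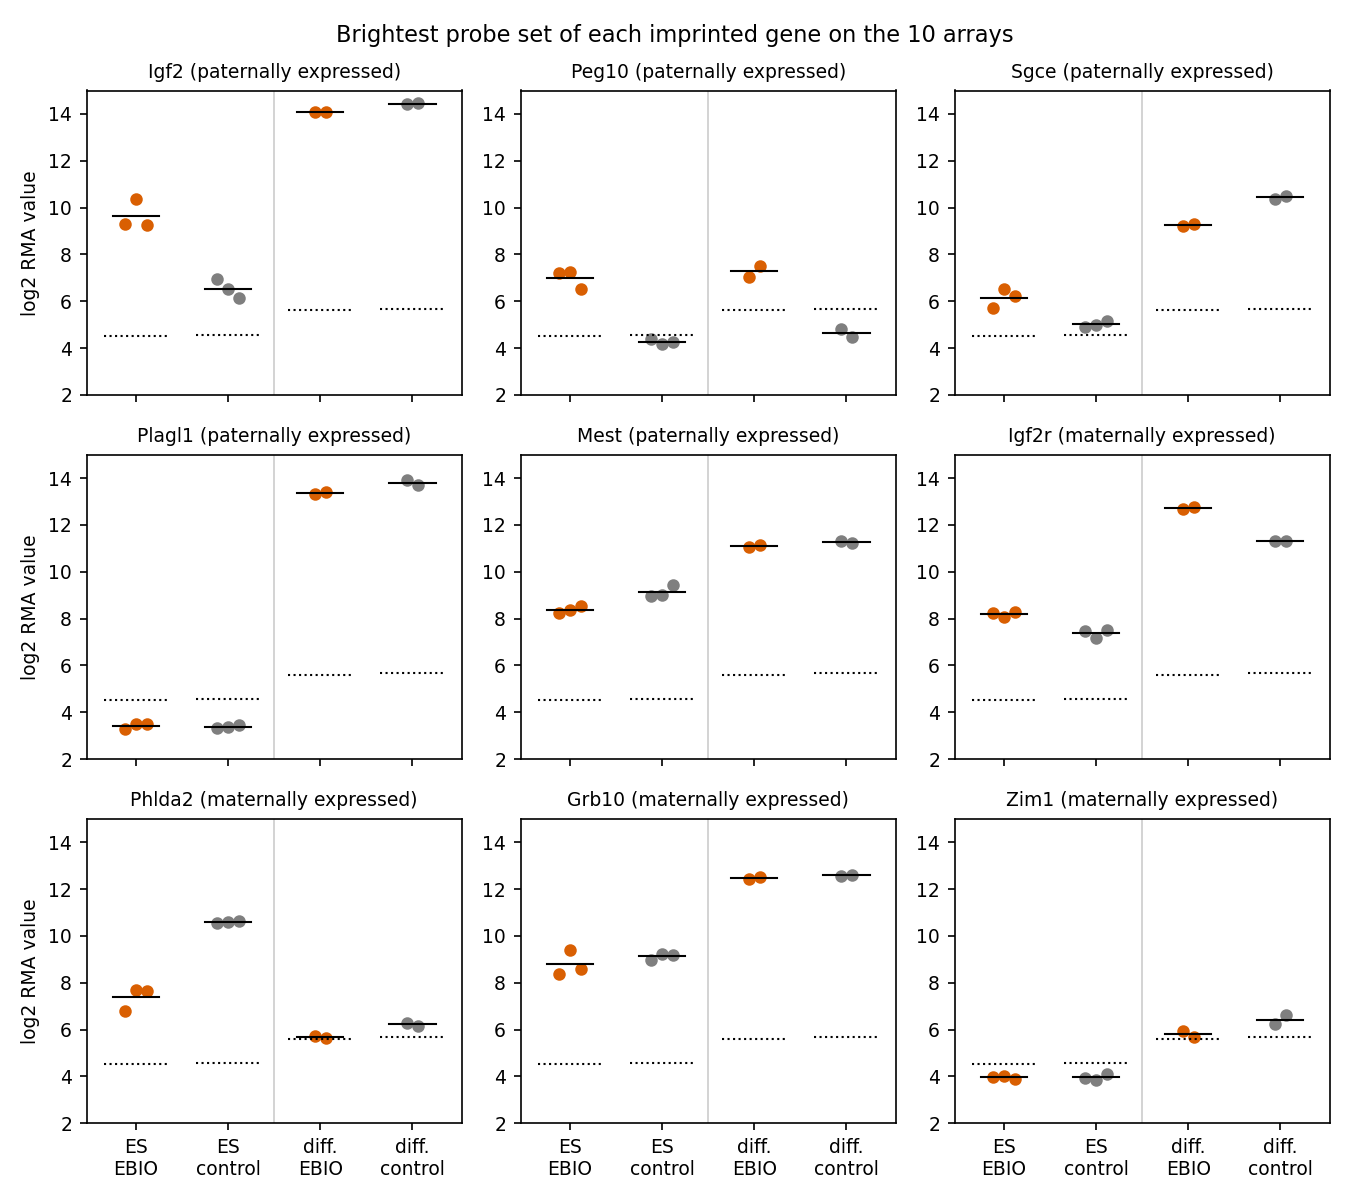
The log2 RMA value (y axis) of each gene's brightest probe set is plotted for ES cells with and without EBIO and differentiated cells with and without EBIO (x axis). Points are arrays, solid bars are group means and dotted bars are the mean array median of the group. Peg10 lies under the dotted bar in both untreated groups and above it in both EBIO groups, while Phlda2 is at 10.55 to 10.65 in untreated ES cells and under 7.7 in all other groups.

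Igf2 rose in ES cells. Its brighter probe set, 1448152_at, read 9.30, 10.37 and 9.26 in ES cells with EBIO, against 6.94, 6.53 and 6.13 in untreated ES cells. The lowest EBIO array was more than 2 units above the highest control array, and the difference was 3.11 ± 0.32 (SE, n = 3 each, adjusted p = 0.00016, limma), an 8.65-fold rise. The second Igf2 probe set, 1415931_at, was under the array median on all 6 arrays, at 3.55 to 3.84 with EBIO and 3.27 to 3.56 without, and was not tested.

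Peg10, a gene derived from a retrotransposon and needed for placenta formation, read 7.20, 7.26 and 6.53 in ES cells with EBIO, against 4.37, 4.18 and 4.26 in untreated ES cells. The untreated arrays were all below their array medians and the EBIO arrays all above them, so Peg10 passed the filter through its EBIO arrays alone. The rise was 2.73 ± 0.20 (SE, n = 3 each, adjusted p = 2.9e-05, limma), 6.62-fold on a scale that understates changes from so low a level. Sgce, its neighbour in the genome, encodes epsilon-sarcoglycan of the muscle membrane. Its probe set 1420688_a_at read 5.73, 6.51 and 6.21 with EBIO, against 4.90, 4.97 and 5.16 without. These groups did not overlap either, and the rise was 1.14 ± 0.20 (SE, adjusted p = 0.0023, limma). The other Sgce probe set, 1443518_at, did not exceed the array median on any of the 10 arrays.

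Mest, a paternally expressed gene of a hydrolase-like protein made in embryonic mesoderm, moved the other way. It read 8.22, 8.35 and 8.55 in ES cells with EBIO, against 8.96, 9.02 and 9.44 in untreated ES cells. All EBIO arrays were below all control arrays, by -0.77 ± 0.17 on average (SE, n = 3 each, adjusted p = 0.0064, limma). Plagl1, a zinc finger transcription factor that restrains growth, had 3 probe sets with EBIO means of 3.42 to 4.01 and control means of 3.38 to 4.15. Its groups overlapped at each of them.

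Among the maternally expressed genes Phlda2 showed the largest change of all 16 probe sets in ES cells. Phlda2 encodes a small pleckstrin-homology protein that limits placental growth. It read 6.77, 7.68 and 7.66 in ES cells with EBIO, against 10.55, 10.59 and 10.65 in untreated ES cells. The control arrays lay within 0.2 units of each other, the EBIO arrays were all far below them, and the fall was -3.23 ± 0.24 (SE, n = 3 each, adjusted p = 2.8e-05, limma), 9.37-fold. 

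Igf2r rose at both of its probe sets, by less than Igf2. Probe set 1424112_at read 8.22, 8.06 and 8.29 with EBIO, against 7.48, 7.16 and 7.53 without, a difference of 0.80 ± 0.14 (SE, n = 3 each, adjusted p = 0.0026, limma). Probe set 1424111_at read 6.35, 6.54 and 6.82 with EBIO, against 5.47, 5.81 and 6.22 without, a difference of 0.74 ± 0.21 (SE, adjusted p = 0.023, limma). The groups did not overlap at either probe set, but at 1424111_at the gap between them was small, and the call was lost without EBIO replicate 2, EBIO replicate 3, control replicate 1 or control replicate 2 (adjusted p = 0.061 to 0.078).

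Grb10, an adaptor that damps signalling from the insulin and IGF1 receptors, had overlapping groups at all 3 probe sets in ES cells. The brightest, 1425458_a_at, read 8.38, 9.41 and 8.58 with EBIO and 8.98, 9.23 and 9.19 without, a difference of -0.34 ± 0.25 (SE, adjusted p = 0.32, limma, not called). Array 2 of the EBIO group lay above all controls and the other 2 below them, and without it the difference was -0.65 and called (adjusted p = 0.018, limma). Zim1, a zinc finger gene next to Peg3, measured 3.95 ± 0.06 with EBIO and 3.95 ± 0.15 without (SD, n = 3 each), under the array median throughout.

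The labelled cell type was checked with its markers. All 8 pluripotency markers were well above the array medians on average in untreated ES cells, with a mean level of 11.52 to 11.70, and all 8 fell with EBIO, to a mean level of 7.63 to 8.08. The fall of Phlda2 and Mest therefore came in cultures whose pluripotency genes were lower too, and the part of this in their change was not tested. Of 7 trophoblast markers measured, cells in which Phlda2 and Peg10 are known to be abundant, Gata3 rose, Tfap2c fell and 3 others tested were not called. The list's mean level was 5.28 to 5.42 with EBIO and 5.03 to 5.27 without. Of 8 neuron and neural progenitor markers Nefl, Ncam1, Map2 and Nes rose and Pax6 and Stmn3 fell, with a mean level of 6.22 to 6.24 with EBIO and 6.11 to 6.29 without. Gata3 (mean 4.09) and Map2 (mean 3.99) were under the array medians in untreated ES cells and passed the filter through their EBIO arrays alone. The 3′ minus 5′ difference of the Actb control probe sets, which grows as RNA degrades, was 0.14 ± 0.06 with EBIO and 0.42 ± 0.09 without (SD, n = 3 each). The Gapdh control probe sets did not show such a gap, at 0.02 ± 0.02 with EBIO and -0.01 ± 0.07 without (SD, n = 3 each). The part of RNA quality in the ES results was not tested.

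In differentiating cells, cultured with EBIO for 10 days, all 9 genes could be tested. Igf2r and Peg10 rose, Igf2, Sgce, Plagl1, Phlda2 and Zim1 fell, and Mest was not called. The probe sets of Grb10 did not move together. Of 15 probe sets tested 4 were called higher and 8 lower. The background was broad, since 61.1% of 23666 probe sets tested were called, 33.6% higher and 27.5% lower, and 15 of 15 member probe sets had groups that did not overlap, as did 82.1% of all probe sets tested.

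Igf2r rose at both of its probe sets here too. Probe set 1424112_at read 12.68 and 12.76 with EBIO, against 11.33 and 11.33 without, and 1424111_at read 12.06 and 12.06 with EBIO, against 10.50 and 10.53 without. Replicates differed by less than 0.1 units in each group, while the groups stood more than 1.3 units apart. The differences were 1.39 ± 0.08 (SE, n = 2 each, adjusted p = 4.8e-05, limma) and 1.54 ± 0.07 (SE, adjusted p = 2.9e-05, limma), a 2.62-fold and a 2.91-fold rise.

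Peg10 read 7.05 and 7.50 in differentiated cells with EBIO, against 4.81 and 4.47 in untreated differentiated cells. As in ES cells, the untreated arrays were below their array medians and the EBIO arrays above them, so Peg10 again passed the filter through the latter alone. The rise was 2.64 ± 0.18 (SE, n = 2 each, adjusted p = 0.00012, limma), 6.23-fold.

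Igf2 was among the brightest probe sets of the differentiated arrays and fell with EBIO. Probe set 1448152_at read 14.10 and 14.06 with EBIO, against 14.43 and 14.45 without, where the highest value on any of these arrays was 14.60. The difference was -0.36 ± 0.07 (SE, n = 2 each, adjusted p = 0.0070, limma), and with the ES arrays in the same fit it was not called (adjusted p = 0.47). The dimmer probe set 1415931_at read 8.53 and 8.64 with EBIO, against 9.39 and 9.34 without, a fall of -0.78 ± 0.08 (SE, adjusted p = 5.0e-04, limma).

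The 3 probe sets of Plagl1 fell together, and the brightest moved least. Probe set 1426208_x_at, of a design class that may catch related transcripts, read 13.33 and 13.42 with EBIO, against 13.90 and 13.70 without, a difference of -0.43 ± 0.10 (SE, adjusted p = 0.012, limma). Without EBIO replicate 1 or control replicate 1 it was not called (adjusted p = 0.070 and 0.055). Probe set 1450533_a_at read 8.87 and 8.95 with EBIO, against 10.01 and 10.04 without, a fall of -1.11 ± 0.08 (SE, adjusted p = 0.00011, limma). The third, 1438588_at, fell by 0.84 on the log2 scale (adjusted p = 0.0056, limma).

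Sgce read 9.20 and 9.30 with EBIO, against 10.37 and 10.49 without, a fall of -1.18 ± 0.09 (SE, n = 2 each, adjusted p = 0.00014, limma). It thus moved against its neighbour Peg10 in these cultures, whereas both rose in ES cells. Mest read 11.05 and 11.12 with EBIO and 11.32 and 11.25 without, a difference of -0.20 ± 0.08 (SE, adjusted p = 0.073, limma, not called). It was called lower under 4 alternatives: averaged probe sets, a filter at the 75th percentile, an intensity trend and joint quantile normalization of all 10 arrays (adjusted p = 0.027 to 0.044).

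Phlda2 was near the array median in differentiated cells, at 5.70 and 5.64 with EBIO, against 6.30 and 6.14 without. The fall was -0.55 ± 0.09 (SE, n = 2 each, adjusted p = 0.0029, limma), and with the ES arrays in the same fit it was not called (adjusted p = 0.12). Zim1 read 5.93 and 5.69 with EBIO, against 6.22 and 6.61 without, a fall of -0.61 ± 0.15 (SE, adjusted p = 0.017, limma). The Zim1 call was lost without EBIO replicate 2 or control replicate 2 (adjusted p = 0.086 and 0.064).

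For Grb10 the answer depended on the probe set. The brightest, 1425458_a_at, differed by -0.11 ± 0.07 (SE, adjusted p = 0.25, limma, not called), and 1425457_a_at by 0.28 ± 0.10 (SE, adjusted p = 0.055, limma, not called). The dimmest, 1430164_a_at, read 7.01 and 7.01 with EBIO, against 6.62 and 6.76 without, and was called higher by 0.32 ± 0.08 (SE, adjusted p = 0.019, limma). That call was lost with the ES arrays in the same fit (adjusted p = 0.11) and without either EBIO replicate or control replicate 1 (adjusted p = 0.082 to 0.088).

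**Figure D2:**
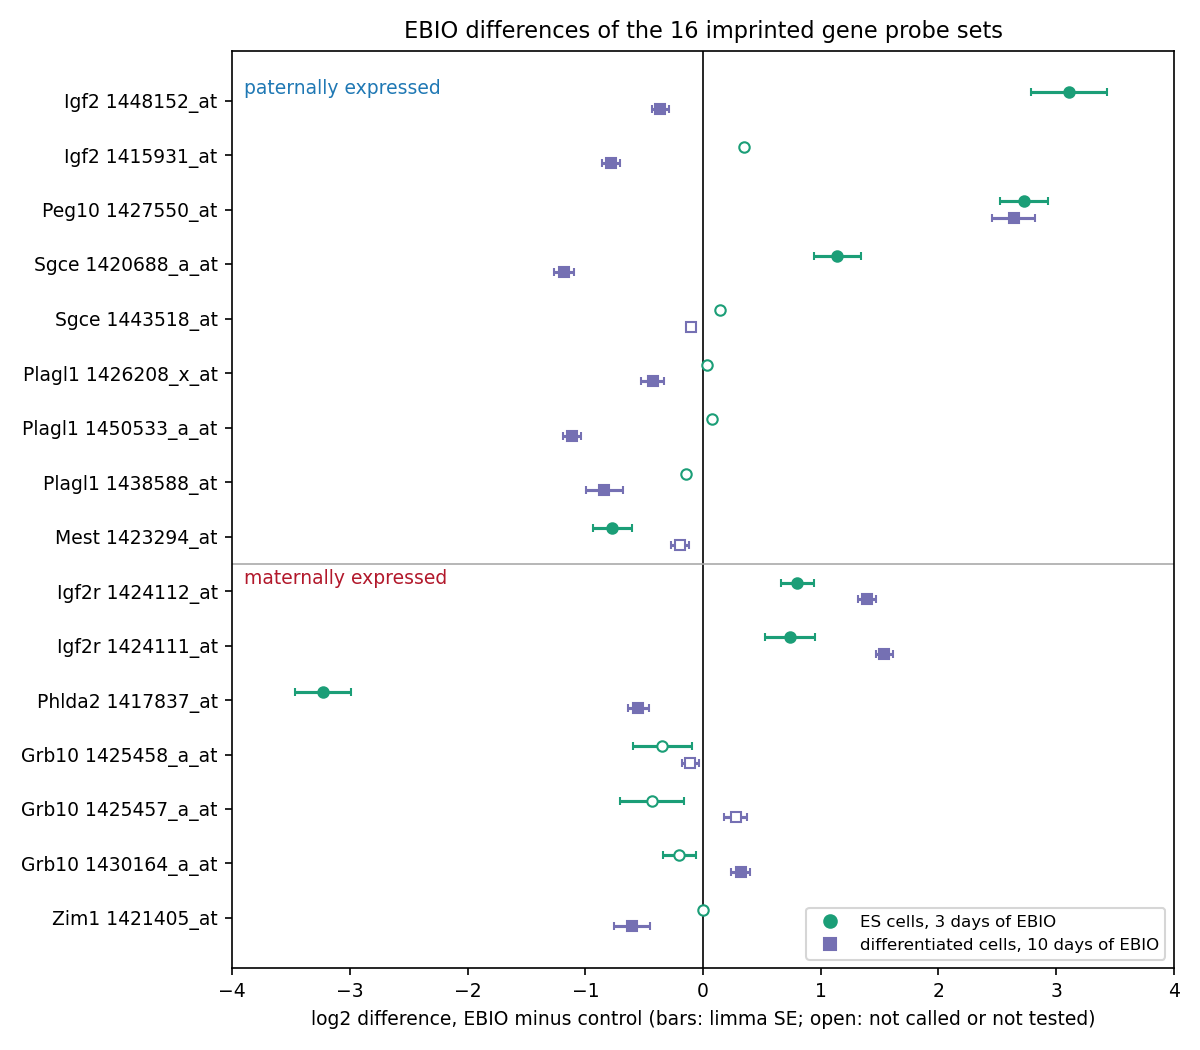
The log2 difference between EBIO and control (x axis) is shown for each of the 16 probe sets (y axis), with ES cells as circles and differentiated cells as squares. Bars are limma standard errors and open symbols were not called or not tested. Peg10 and Igf2r lie right of 0 at both stages and Phlda2 left of 0, while Igf2 1448152_at lies at 3.11 in ES cells and at -0.36 in differentiated cells and Sgce 1420688_a_at at 1.14 in ES cells and at -1.18 in differentiated cells.

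The differentiated cultures also differed in their cell type markers. All 8 fibroblast, 8 endothelial and 8 macrophage markers and all 7 tested endoderm and liver markers were lower with EBIO, and all 8 cardiomyocyte markers were higher. Of 7 neuron and neural progenitor markers tested Pax6 (1.68), Map2 (1.53), Tubb3 (1.24) and Nefl (0.79) rose and Ncam1 (-0.96) and Nes (-0.77) fell, and the list's mean level was 7.17 to 7.19 with EBIO and 6.70 to 6.72 without. Of 5 Ncam1 probe sets tested 2 were higher and 3 lower, and their mean differed by -0.08 (adjusted p = 0.44, limma, not called). Pax6 and Map2 were under the array medians in untreated cells (means 4.50 and 4.90) and passed the filter through their EBIO arrays alone. The mean level of the fibroblast list was 6.77 to 6.91 with EBIO and 11.52 without. That of the endoderm and liver list was 5.36 to 5.45 with EBIO and 7.80 to 8.04 without, and that of the cardiomyocyte list was 12.46 to 12.47 with EBIO and 8.31 to 8.38 without. The median difference of the fibroblast list was -4.62. Fewer cells of a type and less RNA per cell cannot be told apart in such cultures. The part of these marker shifts in the imprinted gene results was not tested.

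Whether the EBIO response differed between the stages was tested as the differentiated difference minus the ES difference in 1 fit of 10 arrays. Of 15 member probe sets tested, 4 were called higher in differentiated cells by this measure and 6 lower, where 39.6% of 27475 probe sets were called, 18.6% higher and 21.1% lower. Igf2 showed the largest gap, -3.48 ± 0.45 at 1448152_at (SE, adjusted p = 0.00012, limma) and -1.13 ± 0.19 at 1415931_at (adjusted p = 0.00069). Phlda2 had the largest in the other direction, 2.68 ± 0.33 (SE, adjusted p = 8.6e-05, limma), since its fall was steeper in ES cells. Its level in untreated differentiated cells was 6.22 ± 0.11 (SD, n = 2), near the array median.

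Sgce differed by -2.32 ± 0.27 (SE, adjusted p = 6.8e-05, limma). It and Igf2 1448152_at were called in opposite directions at the 2 stages, as were 9.76% of the 20060 probe sets tested at both. Igf2r, Peg10 and Phlda2 were called in the same direction at both stages, as were 18.2% of those probe sets. The Igf2r rise was larger in differentiated cells by 0.59 ± 0.19 at 1424112_at (SE, adjusted p = 0.030, limma) and 0.80 ± 0.29 at 1424111_at (adjusted p = 0.046). These calls were not firm: without any 1 differentiated array neither was called (adjusted p = 0.070 to 0.13).

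For Peg10 the EBIO differences at the 2 stages were -0.09 ± 0.32 apart (SE, adjusted p = 0.85, limma, not called), but after quantile normalization of all 10 arrays together they were -0.95 apart and called (adjusted p = 0.032). Since its untreated arrays were under the array median at both stages, both rises are limited from below, and the fit cannot show whether the responses were alike. Plagl1 differed at 1450533_a_at (-1.19, adjusted p = 6.8e-05) and 1438588_at (-0.70, adjusted p = 0.024), and at 1426208_x_at the difference of -0.46 was not called (adjusted p = 0.052). The latter was called under the replicate block (adjusted p = 0.046), 1 probe set per gene (0.044) or a filter at the 75th percentile (0.039). It was also called with averaged probe sets (-0.78, adjusted p = 0.00065) and without ES EBIO replicate 1 (0.036) or ES control replicate 3 (0.035). Mest differed by 0.57 (adjusted p = 0.064, limma), and with that block it was called (adjusted p = 0.015). Mest was also called with averaged probe sets (0.045) and without ES EBIO replicate 3 (0.043) or ES control replicate 1 (0.037). Zim1 (-0.60, adjusted p = 0.039) and Grb10 1430164_a_at (0.52, adjusted p = 0.047) were called in this fit, and the Grb10 call was lost with the block (adjusted p = 0.050). Leaving out 1 array ended the call for Zim1 in 6 of 10 cases (adjusted p = 0.059 to 0.19), for Grb10 1430164_a_at in 8 of 10 (0.064 to 0.17) and for Plagl1 1438588_at in 4 of 10 (0.053 to 0.12). Joint quantile normalization ended the calls of Zim1 (adjusted p = 0.15), Grb10 1430164_a_at (0.068) and Plagl1 1438588_at (0.064) as well. Grb10 1425458_a_at (0.24, adjusted p = 0.63) and 1425457_a_at (0.71, adjusted p = 0.17) were not called. Without EBIO replicate 2 of the ES arrays both were, at 0.55 (adjusted p = 0.038) and 0.98 (adjusted p = 0.028).

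Of the 6 lower calls, those on Igf2 1415931_at, the Plagl1 probe sets 1450533_a_at and 1438588_at, and Zim1 were on probe sets under the array median on all 6 ES arrays. They entered the fit through the differentiated arrays, so these 4 calls largely restate the falls in differentiated cells and do not show a response that differs in sign or is absent in ES cells.

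Set side by side, the paternally and maternally expressed genes each held members that moved in both directions. In ES cells 3 of the 4 paternally expressed genes tested rose (Igf2, Peg10 and Sgce) and 1 fell (Mest), and of the 3 maternally expressed genes tested 1 rose (Igf2r) and 1 fell (Phlda2). Over all 12096 genes tested, at their brightest probe set, 22.8% rose and 20.5% fell, and with so few members the class counts are a description. The median difference was 1.93 over the 4 tested paternal probe sets and -0.27 over the 6 maternal ones, against -0.02 over all probe sets tested. Over all 9 paternal and 7 maternal probe sets, dim ones included, the ES medians were 0.15 and -0.20. With 1 value per gene, its brightest probe set, the medians were 1.93 over 4 paternally expressed genes tested and -0.34 over 3 maternally expressed ones. Over all 5 and 4 genes, tested or not, they were 1.14 and -0.17. The filter let Peg10 in through its EBIO arrays alone and left out Plagl1, so the medians of tested genes depend on the filter.

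In differentiated cells the medians depended on how probe sets were counted. With 1 value per gene the median was -0.36 over 5 paternally expressed genes and -0.33 over 4 maternally expressed ones. Counted by probe set it was -0.60 over 8 paternal probe sets and 0.28 over 7 maternal ones, against 0.06 over all probe sets tested, with 3 paternally expressed genes lower (Igf2, Sgce and Plagl1) and 1 higher (Peg10). Of the maternally expressed genes, Phlda2 and Zim1 fell, and Igf2r and 1 probe set of Grb10 were higher. Over all 12330 genes tested, at their brightest probe set, 31.9% rose and 31.8% fell. Grb10 counts here as maternally expressed, although it is paternally expressed in neurons. With so few genes, several of them represented by more than 1 probe set, these medians are a description, and no difference between the parental classes was tested.

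**Figure D3:**
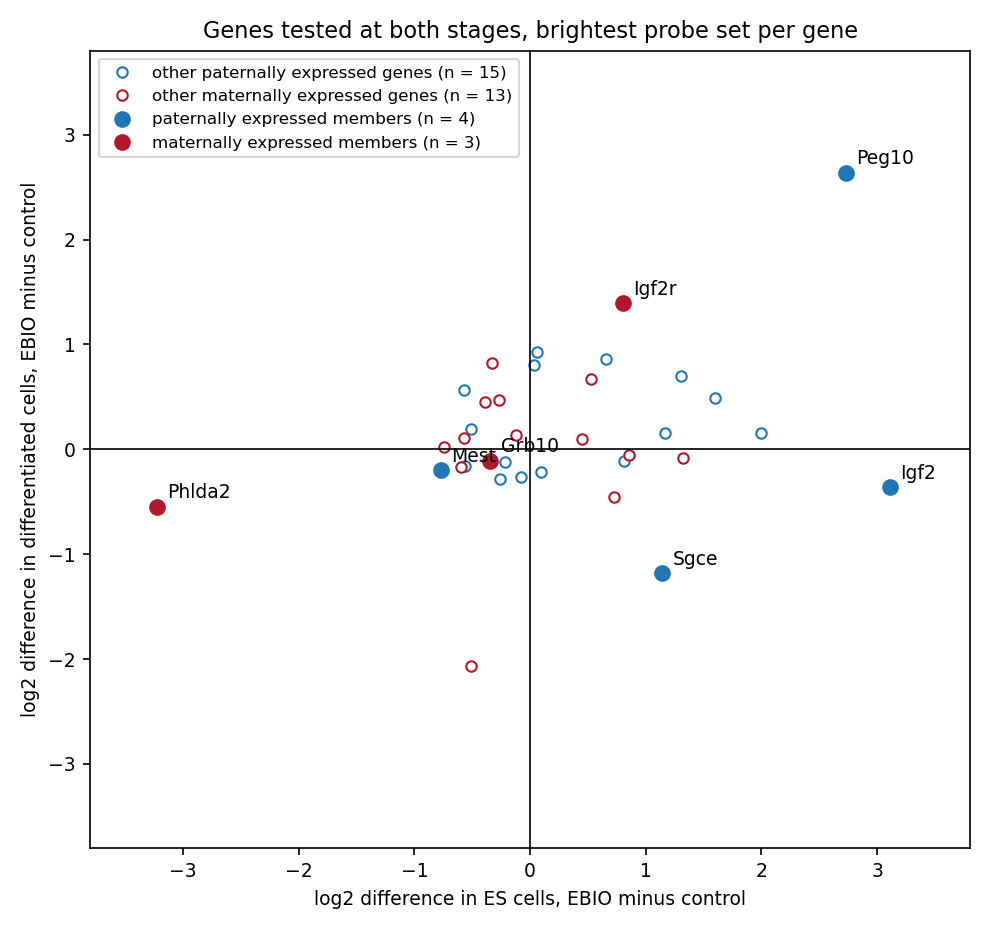
Each point is a gene tested at both stages, placed by its log2 EBIO minus control difference in ES cells (x axis) and in differentiated cells (y axis) at its brightest probe set. Filled points are the 7 members tested at both stages, open points the 15 paternally and 13 maternally expressed genes of the wider lists. Peg10 and Igf2r are in the upper right, Igf2 and Sgce in the lower right and Phlda2 at the far left.

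Other imprinted genes were read at their brightest probe set. Of 23 other paternally expressed genes 15 could be tested in ES cells, and 5 rose and 2 fell, where 22.8% of the 12096 genes tested rose and 20.5% fell. Peg3, a zinc finger gene next to Zim1, rose by 2.00 to 9.93 ± 0.27 with EBIO, against 7.94 ± 0.15 without (SD, n = 3 each, adjusted p = 5.1e-05, limma). Sfmbt2, a Polycomb group gene, rose by 1.60 and Nnat, the neuronatin gene, by 1.30, and Mcts2 (-0.57) and Impact (-0.56) fell. Nnat read 4.04 ± 0.14 in untreated ES cells (SD, n = 3), under the array medians, so it passed the filter through its EBIO arrays alone. The Mcts2 call was lost without EBIO replicate 1 (adjusted p = 0.070).

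In differentiated cells 9 of 18 of these genes rose and 2 fell, against 31.9% and 31.8% of 12330 genes tested. Nap1l5, a nucleosome assembly protein relative, rose most, to 8.20 ± 0.14 with EBIO, against 4.46 ± 0.28 without (SD, n = 2 each, adjusted p = 1.8e-05, limma), and its untreated arrays were under the array median. Kcnq1ot1, the long non-coding RNA of the domain that holds Phlda2, rose by 0.92 and Mkrn3 by 0.86, and with the ES arrays in the same fit Mkrn3 was not called (adjusted p = 0.056). Dlk1, a Notch ligand relative bright in both groups, differed by -0.26 (adjusted p = 0.028) and Ins2, an insulin gene, by -0.22 (adjusted p = 0.040), and without any 1 of the 4 arrays neither was called (adjusted p = 0.059 to 0.16). The median difference of the list was 0.34, against 0.02 over all genes tested and -0.36 over the 5 paternally expressed members, each with 1 probe set per gene.

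Of 21 other maternally expressed genes 14 could be tested in ES cells, and 3 rose and 2 fell, near the 22.8% higher and 20.5% lower over all genes. Some genes of this list are maternally expressed only in placenta or brain, so the label may not hold in these cells. With passage as a block these counts were 5 and 5. H13, a signal peptide peptidase gene, rose by 1.32 at its brightest probe set, but with the mean of its probe sets the difference was 0.24 and not called (adjusted p = 0.084, limma). Cd81, a tetraspanin gene, rose by 0.72 and the ubiquitin ligase gene Ube3a by 0.53. Slc22a18, in the same domain as Phlda2, fell (-0.60), as did Atp10a (-0.51). The last 3 calls were not firm. With 1 array left out, Ube3a kept its call only without control replicate 3 (adjusted p = 0.066 to 0.096 in the other 5 fits) and Atp10a only without control replicate 1 (0.057 to 0.094). Slc22a18 was not called without EBIO replicate 2, EBIO replicate 3 or control replicate 1 (0.050 to 0.081). Cdkn1c, the cell cycle inhibitor of that domain, read 8.22 ± 0.61 with EBIO and 7.36 ± 0.38 without (SD, n = 3 each, adjusted p = 0.057, limma, not called), a gene outside the naming rule and chosen after its values were seen.

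In differentiated cells 4 of 15 of these genes rose and 4 fell, near the 31.9% higher and 31.8% lower over all genes. Ppp1r9a, in the same region as Peg10 and Sgce, rose by 0.82, Ube3a by 0.67 and Commd1 by 0.47. Atp10a, a phospholipid flippase gene, fell to 6.10 ± 0.06 with EBIO, against 8.16 ± 0.06 without (SD, n = 2 each, adjusted p = 1.6e-05, limma), and all 3 of its tested probe sets were lower. Asb4 (-0.85) and Cd81 (-0.45) fell too. In the region around Peg10, then, Peg10 and Ppp1r9a were higher and Sgce and Asb4 lower in the same cultures.

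Genes of the IGF axis were read beside Igf2 and Igf2r. In ES cells 4 of 6 tested rose and 1 fell, where 22.8% of all genes rose and 20.5% fell. Igf1r, the receptor through which Igf2 signals, rose by 2.49 to 7.96 ± 0.14 with EBIO, against 5.47 ± 0.36 without (SD, n = 3 each, adjusted p = 3.3e-05, limma). Irs2 (1.98) and Irs1 (0.69), adaptors of the same receptors, rose, and Igf2bp3, an RNA-binding protein named for binding Igf2 transcripts, fell by 0.66 on the log2 scale. The Irs1 call was lost without EBIO replicate 1 or 3 or control replicate 1 or 2 (adjusted p = 0.054 to 0.083), and that of Igf2bp3 without EBIO replicate 1 or 3 (0.050 and 0.051).

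In differentiated cells 3 of 7 rose and 2 fell, near the 31.9% and 31.8% over all genes. Igf1, the related growth factor, fell to 5.30 ± 0.36 with EBIO, against 9.82 ± 0.09 without (SD, n = 2 each, adjusted p = 1.5e-05, limma), at all 4 of its probe sets. At this brightest probe set the EBIO arrays were under their array medians of 5.62 and 5.59. Igf1 thus passed the filter there through its untreated arrays alone. Igf2bp3 fell by 1.13 on the log2 scale. The receptor genes Insr (1.19) and Igf1r (0.86) and the adaptor gene Irs2 (0.69) rose. Igf1r and Irs2 were thus higher with EBIO at both stages, as Igf2r was.

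In the list of genes that maintain imprints, 6 of 9 tested fell in ES cells with EBIO and 1 rose. Over all genes 20.5% fell and 22.8% rose. The list's median was -0.59, against -0.04 over all genes tested. The list was chosen with earlier results of these data known, so these figures are a description. The 2 genes left without a call were Dnmt1, the maintenance DNA methyltransferase (0.25, limma adjusted p = 0.21), and Arid4a (-0.59, limma adjusted p = 0.18). Dppa3, which protects maternal imprints in the early embryo, fell to 5.43 ± 0.13 with EBIO, against 8.73 ± 0.13 without (SD, n = 3 each, adjusted p = 2.2e-06, limma). Zfp57, a zinc finger protein that binds methylated imprinting control regions, fell to 6.37 ± 0.65 with EBIO, against 8.49 ± 0.63 without (SD, n = 3 each, adjusted p = 0.0027, limma). Eed, a Polycomb protein, fell by 1.33 on the log2 scale. Arid4b, a chromatin regulator linked to imprinting, rose by 0.88 at its brightest probe set, and with the mean of its probe sets it was not called (adjusted p = 0.076). The pluripotency markers fell in the same cultures, and their part in these falls was not tested. DNA methylation itself was not measured.

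In differentiated cells 3 of 8 tested rose and 2 fell, near the 31.9% and 31.8% over all genes. Uhrf1, which guides Dnmt1 to replicated DNA, fell by 0.64 on the log2 scale, and Zfp57 fell to 5.90 ± 0.10 with EBIO, against 6.49 ± 0.01 without (SD, n = 2 each, adjusted p = 0.0019, limma). Arid4a (0.38), Dnmt1 (0.31), the maintenance DNA methyltransferase, and Ctcf (0.30), the insulator protein of the Igf2 domain, rose by small amounts. With the ES arrays in the same fit, or with no filter on dim probe sets, none of these 3 was called (adjusted p = 0.053 to 0.44), and each lost its call in 3 of the 4 fits that left out 1 array (0.081 to 0.14), and Zfp57 was not called in that wider fit (adjusted p = 0.32).

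Ranks within an array place the genes at each stage without using levels across the separately normalized sets. In untreated differentiated cells the brightest Igf2 probe set stood at the 99.99 percentile of its arrays, against 76.0 in untreated ES cells. Plagl1 stood at 99.8 and 10.1, Sgce at 93.2 and 58.8, and Igf2r at 96.6 and 82.6 in the same order of groups. Phlda2 ran the other way, at 56.6 in untreated differentiated cells and 97.6 in untreated ES cells. By rank 12 of the 16 member probe sets were higher in untreated differentiated cells. By the deposited values, which share no scale between the stages, 15 of 16 were. The matching share over all probe sets was not computed, so neither count shows a trait of the members. These positions are a description with no test.

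EBIO brought several of these ranks closer between the stages and moved others apart. Igf2 stood at the 94.8 percentile in ES cells with EBIO, nearer its place in differentiated cells, and Phlda2 at 81.6. Sgce stood at 72.0 in ES cells with EBIO and at 85.1 in differentiated cells with EBIO. Plagl1 stayed at 12.0 in ES cells with EBIO.

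**Figure D4:**
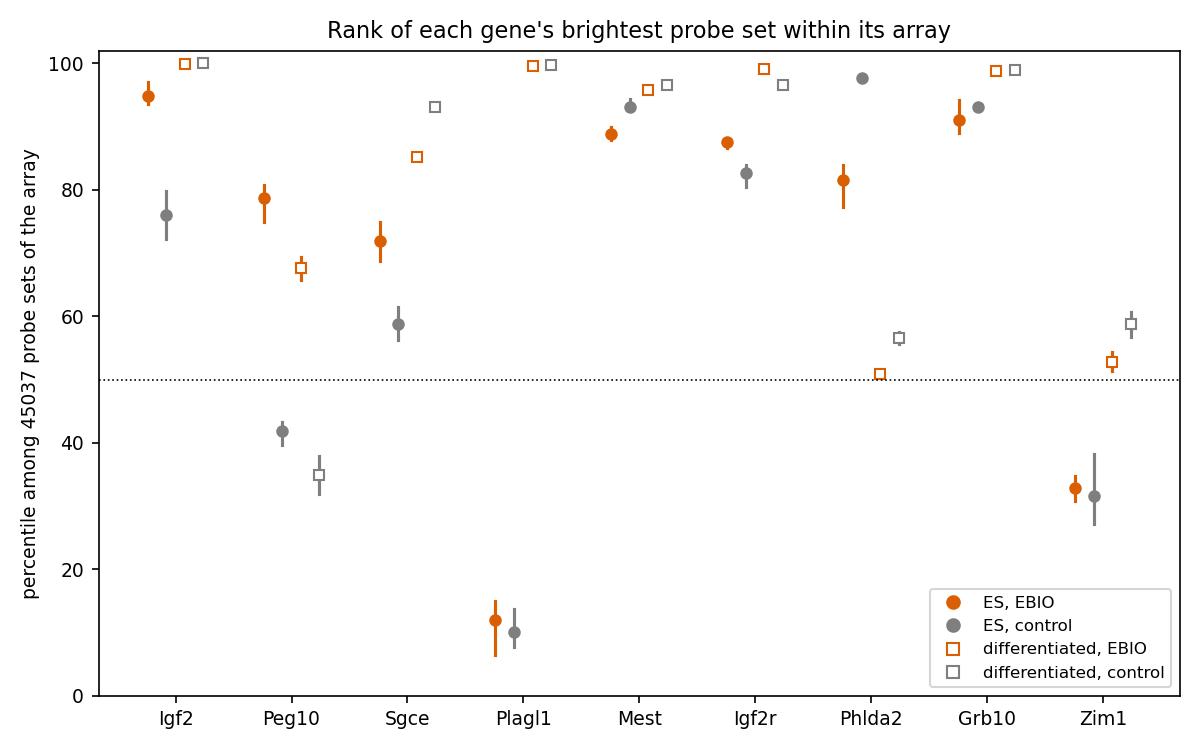
The percentile of each gene's brightest probe set among the probe sets of its array (y axis) is shown by gene (x axis). Filled circles are ES cells, open squares differentiated cells, orange EBIO and grey control, with vertical lines from the lowest to the highest array of the group. Plagl1 is near the bottom of the ES arrays at 12.0 and 10.1 and near the top of the differentiated ones at 99.6 and 99.8, and Phlda2 has its highest rank, 97.6, in untreated ES cells.

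Member genes were also correlated over the 10 arrays, after the mean of each stage was taken from each value. Phlda2 and Mest correlated at 0.93, Igf2r and Peg10 at 0.92, and Igf2 and Sgce at 0.79, while Igf2 and Phlda2 correlated at -0.90. The genes did not form separate pairs, since Igf2 and Peg10 correlated at 0.71, Sgce and Plagl1 at 0.69, and Plagl1 and Zim1 at 0.62. Outside the members, Igf2 was most like Ap3s1 (0.989), 9530068E07Rik (0.988) and Snx4 (0.988), and Phlda2 was most like Gpn1 (0.997), Coil (0.995) and Lyar (0.995). These correlations rest on 4 group means that share the EBIO contrast and carry no test.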

How the data were processed

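Each of 10 cultures gave 1 Affymetrix array, with biotin labelling by the one-cycle method per the labels' protocols. The authors deposited log2 RMA values (per the submitters' processing notes; BioConductor is named in a label), with versions not given in the sources used here. RMA removes background, equalises distributions within a set and combines probes, and so compresses the low end. No read depth applies, and the number of arrays limits the precision.

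Of 45101 probe sets 64 Affymetrix controls were left out. The platform annotation gave 34958 probe sets 1 gene symbol, 932 several and 9211 none; 34754 symbols were updated through a RefSeq table. Probe sets above the array median (50th percentile) on as many arrays as the smallest group held were tested with limma 3.58.1 (lmFit and eBayes; R 4.3.3), each EBIO comparison on its own stage and the difference between stages on 4 groups. All members were named, and per wider list the 3 called genes with the largest change in each direction; these lists used the brightest probe set per gene. Members and lists were chosen with earlier results of these data known. On simulated data the ES fit of 22895 probe sets recovered 79% of changes of 1 log2 unit, the differentiated fit of 22726 recovered 99%, and the stage-difference fit of 26598 recovered 46%.

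ES replicate numbers pair the samples by passage, per the labels: deviations of same-numbered arrays from their group means correlated at 0.354, 0.232 and 0.62. Differentiated numbers did not (-0.0909). Alternatives were 1 probe set or the mean per gene, no filter or the 75th percentile, an intensity trend, joint quantile normalization, the replicate block, 1 fit of 4 groups and leaving out each replicate. The largest share of equal values between any 2 arrays was 0.557%, so no array was a copy of another.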

Additional observations from a re-analysis of the deposited data

Results flagged for a closer look

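The EBIO effect differed between the stages, by the test of the difference itself in limma, at 10 member probe sets. As the differentiated difference minus the ES difference, the values were -3.48 for Igf2 1448152_at, -1.13 for Igf2 1415931_at, -2.32 for Sgce 1420688_a_at, -1.19 for Plagl1 1450533_a_at, -0.70 for Plagl1 1438588_at and -0.60 for Zim1. They were 2.68 for Phlda2, 0.59 and 0.80 for Igf2r 1424112_at and 1424111_at, and 0.52 for Grb10 1430164_a_at. In the array as a whole 39.6% of probe sets were called by the same test. The ES response of Igf2 1415931_at, both Plagl1 probe sets and Zim1 was measured under the array median, where the scale is compressed, so these differences largely restate the falls in differentiated cells.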

How the results depend on the processing

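The directions of the calls on Igf2, Peg10, Sgce, Igf2r, Phlda2 and Mest in ES cells, and on Igf2, Peg10, Sgce, Igf2r, Plagl1, Phlda2 and Zim1 in differentiated cells, held under all alternatives run in which the probe set was tested. With the replicate block 11224 probe sets were called in ES cells, 13384 in differentiated cells and 12806 for the difference, and member genes called stayed at 4 higher and 2 lower, 3 and 5, and 3 and 4; among the members and named genes the calls changed by that block are those given above for Mest, Plagl1, Grb10 and the wider maternal list, and, in differentiated cells, Grb10 1425457_a_at (called, adjusted p = 0.047) and Ctcf, Dlk1 and Ins2 (not called, 0.055 to 0.088). The number of probe sets called, 9154 in ES cells, 14459 in differentiated cells and 10887 for the difference, became 5413, 8132 and 6236 genes with 1 probe set per gene and 5175, 7597 and 6032 after averaging each gene's probe sets, since fewer features were tested. A filter at the 75th percentile left 8861 calls in differentiated cells, and 2 member genes higher in ES cells and 1 in differentiated cells, since Peg10, Sgce in ES cells and 1 Grb10 probe set were no longer tested. Under that filter Phlda2 and Zim1 were not tested in differentiated cells and Mest was called, which made 4 member genes lower there in place of 5; the count was 6 with averaged probe sets, an intensity trend or joint quantile normalization, through Mest. Leaving out 1 array gave 7234 to 10143 calls in ES cells, with 4 members higher and 2 to 3 lower, 11553 to 12459 in differentiated cells, with 2 to 3 higher and 4 to 5 lower, and 8486 to 12487 for the difference, with 1 to 3 higher and 3 to 4 lower. The uncalled Grb10 1425458_a_at difference in differentiated cells was 0.16 after averaging each gene's probe sets. The uncalled Peg10 difference between stages lay between -0.32 and 0.13 with 1 array left out: it was 0.13 without EBIO replicate 1 or 0.08 without control replicate 1 of the differentiated arrays, and 0.01 and 0.04 without EBIO replicates 1 and 2 of the ES arrays. Without both passage-27 arrays, chosen after seeing the data, 9261 probe sets were called in ES cells. Signals under the array median limit what could be seen for Plagl1 and Zim1 in ES cells.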
